A study of Mus musculus with 48 samples.

Results

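The Fc gamma receptors of the mouse macrophage are described here as 5 genes of the 49568 in the deposited RAW264.7 count table, found by their gene symbols: Fcgr1, Fcgr3 and Fcgr4, which code for the activating receptors, Fcgr2b, which codes for the inhibitory receptor, and Fcer1g, which codes for the adaptor chain that the activating receptors share. All 5 were found once in the table and all 5 passed the filter on low counts in every comparison.

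Fc gamma receptors bind the constant part of IgG and so let a macrophage take up antibody-coated particles and immune complexes. The activating receptors carry no signalling motif of their own and hand the signal to the common gamma chain, product of Fcer1g, whose activation motif is phosphorylated by Src family kinases and read by the kinase Syk. FcγRIIB, product of Fcgr2b, carries an inhibitory motif that recruits phosphatases, and the balance of the activating receptors against it sets the threshold at which immune complexes activate the cell. IFN-γ is a textbook inducer of the high-affinity receptor FcγRI, product of Fcgr1.

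RAW264.7 is an established mouse macrophage line of tumour origin, so every sample came from 1 line and no animal entered. Cells received a synthetic peptide of 15 residues (100 µg/ml), IFN-γ (5 ng/ml), both, or PBS, and were collected after 72 h. The peptides copy the same stretch of the HLA-DR beta chain in 3 alleles, with LE from HLA-DRb1*0301, SE from HLA-DRb1*0401 and PE from HLA-DRb*0402, so they are human sequences given to mouse cells. The 8 groups were PBS, LE, SE, PE, IFNy, LE+IFNy, SE+IFNy and PE+IFNy, with 6 libraries each, of which replicates 1 to 3 carry a letter in their labels and replicates 4 to 6 carry the prefix HLA.

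The IFN-γ label was checked first against 20 known IFN-γ target genes, averaged as log2(CPM + 0.5), where CPM is the count scaled to the total of the library. In the letter-named libraries this level was 2.55 to 2.74 in the 12 libraries labelled without IFN-γ and 6.66 to 7.07 in the 12 with it, with no library against its label. In the HLA-named libraries 12 of 24 went against the label: 6 labelled LE or PE without IFN-γ stood at the high level, and 6 labelled IFNy or SE+IFNy stood at the low level. The comparisons below therefore use the 24 letter-named libraries, 3 per group, and the HLA-named libraries are given by their labels near the end. Total counts per library ran from 16498562 to 26929356 in the letter-named libraries. Of 8 macrophage marker genes, 7 had a mean over 1 CPM, and their sum was 9029 to 11310 CPM without and 6178 to 8694 CPM with IFN-γ, while Mertk, a receptor of resident macrophages for dying cells, reached at most 0.408 CPM. Summed markers of B cells, T cells, mast cells and neutrophils stayed at or under 1.49 CPM in every library, and those of dendritic cells were 1.18 to 2.44 CPM. Those of NK cells were 0 to 0.0606 CPM without and 2.54 to 7.60 CPM with IFN-γ, where Klrk1 alone reached 7.55 CPM and the defining marker Ncr1 was at 0. The part of the macrophage marker sum in the member changes was not tested. In bulk RNA, fewer cells of a type and less RNA per cell cannot be told apart.

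Of the 5 genes, 4 lie in 1 stretch of chromosome 1 in GENCODE M21 on GRCm38: Fcgr2b at chr1:170958617-170976547 on the minus strand, Fcgr4 at chr1:171018920-171029761 on the plus strand, Fcgr3 at chr1:171051174-171064935 and Fcer1g at chr1:171229572-171234365, both on the minus strand. Fcgr1 lies apart, at chr3:96282909-96293969 on the minus strand. Fcgr2b and Fcgr3 share sequence: 44 of the 1733 stretches of 100 bases in Fcgr3 transcripts, or 2.54%, also occur in Fcgr2b, and 82 of 5843 in Fcgr2b, or 1.40%, occur in another gene, while Fcgr1, Fcgr4 and Fcer1g had none. Counting used only reads with a single match, so reads from the shared stretches were lost to both genes and their levels carry that uncertainty. Gm38204 overlaps Fcgr2b on the opposite strand with at most 3 counts in a library, Gm26110 overlaps Fcgr4 with at most 4, and Mir6546 overlaps Fcgr3 with 0. Whether strand was used in the counting is not given in the sources used here.

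The bases just before the start of Fcgr1 and Fcgr4 are shown because these were the members with the largest difference between IFNy and PBS. They are from RefSeq on GRCm38.p6 and are read 5′ to 3′ along the gene. Fcgr1 has 250 bases, at chr3:96293970-96294219 on the minus strand, and Fcgr4 has 244 bases, at chr1:171018676-171018919 on the plus strand. Capitals mark matches to 3 motifs: the gamma-activated site TTCNNNGAA, the core of the interferon-stimulated response element (GAAA, any 2 bases, GAAA), and the PU.1 core GAGGAA, read TTCCTC on the other strand.
Fcgr1: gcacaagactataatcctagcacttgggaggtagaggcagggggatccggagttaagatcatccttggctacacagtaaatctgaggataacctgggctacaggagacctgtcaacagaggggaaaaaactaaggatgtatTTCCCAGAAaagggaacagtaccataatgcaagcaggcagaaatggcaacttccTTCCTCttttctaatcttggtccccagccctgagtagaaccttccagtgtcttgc
Fcgr4: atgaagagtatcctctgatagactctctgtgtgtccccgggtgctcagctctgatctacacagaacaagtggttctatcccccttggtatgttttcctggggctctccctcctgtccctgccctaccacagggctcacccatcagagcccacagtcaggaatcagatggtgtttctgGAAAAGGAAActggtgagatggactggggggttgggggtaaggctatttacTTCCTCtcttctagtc
The Fcgr1 stretch held 1 gamma-activated site, 109 bases before the start, and 1 PU.1 core 55 bases before it. In Fcgr4 there was 1 response element core, 73 bases before the RefSeq start, and 1 PU.1 core 22 bases before it. The printed Fcgr4 stretch stops 6 bases short of that RefSeq start, where the GENCODE gene begins. Among the same windows of 250 bases of the other members, both listed starts of Fcgr3 held a PU.1 core and neither Fcgr2b nor Fcer1g held any of the 3 motifs. Of 32851 RefSeq promoters, searched on both strands, 7.02% held the gamma-activated site, 2.98% the response element core and 23.3% the PU.1 core. A match is a description of the letters and no evidence of binding.

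Per length, as CPM per kilobase of exon (RPKM), the adaptor stood far above the receptors in every group. In PBS the order was Fcer1g at 604 ± 16.9, Fcgr3 at 84.6 ± 9.74, Fcgr1 at 54.1 ± 9.93, Fcgr4 at 20.2 ± 3.67 and Fcgr2b at 9.08 ± 0.365 RPKM (SD, n = 3). In IFNy the order of the receptors was different: Fcgr1 at 157 ± 5.88, Fcgr3 at 56.8 ± 10.2, Fcgr4 at 52.4 ± 9.53 and Fcgr2b at 12.6 ± 0.358 RPKM, under Fcer1g at 533 ± 25.3 RPKM. So Fcgr1 passed Fcgr3, and the ranges of Fcgr3 (49.4 to 68.4) and Fcgr4 (44.8 to 63.1 RPKM) overlapped. Lengths join all annotated exons, 5790 bases over 7 transcripts in Fcgr2b and 1256 bases over 1 in Fcgr4. By CPM Fcgr2b stood above Fcgr4 in PBS (52.6 against 25.3), so its last place per length depends on the transcripts counted. Which transcripts the cells used was not tested.

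**Figure D1:**
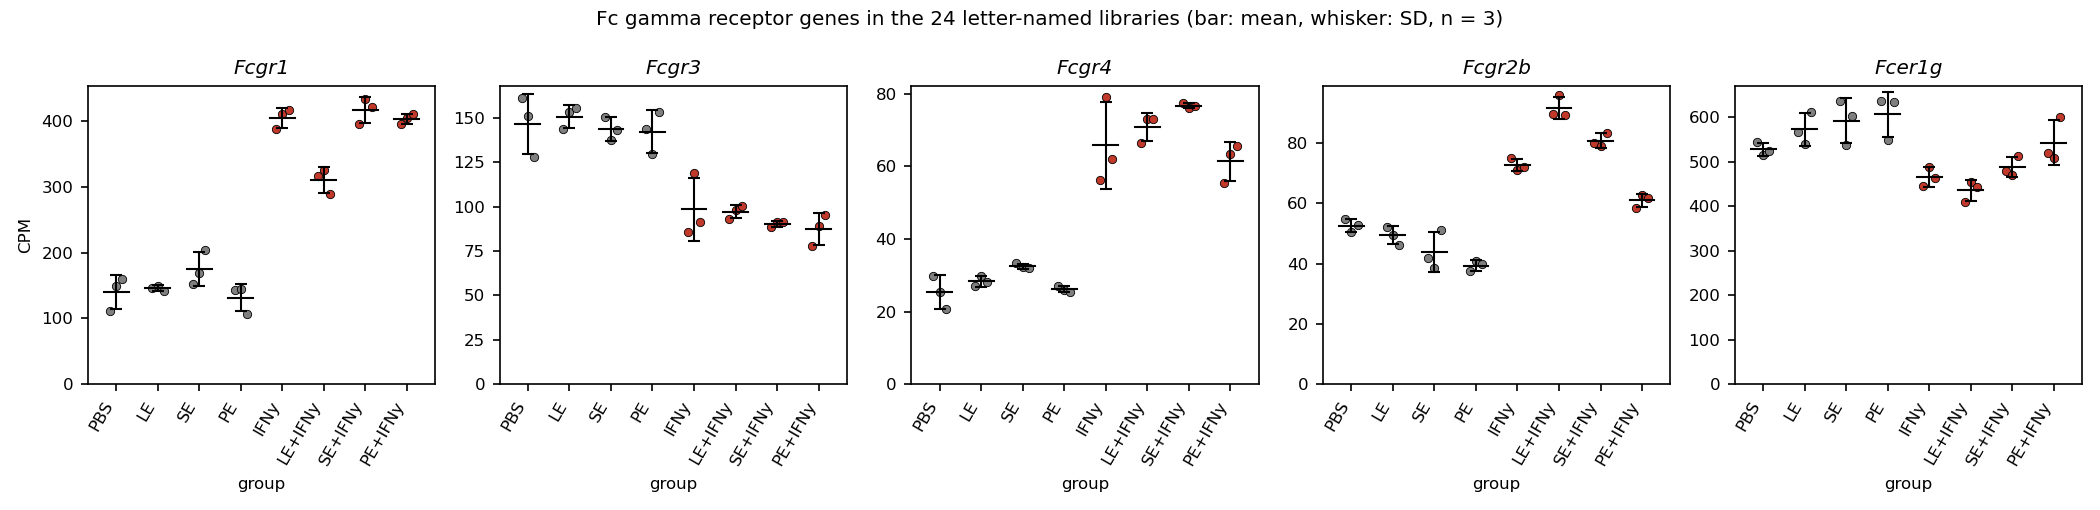
Level of each member in CPM (vertical axis, from 0, a scale of its own per gene) in the 8 groups of the letter-named libraries. Points are libraries, grey without and red with IFN-γ, bars are means and whiskers SD (n = 3). Fcgr1, Fcgr4 and Fcgr2b were higher and Fcgr3 was lower in all 12 libraries with IFN-γ than in any of the 12 without, while Fcer1g overlapped.

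Across the 24 libraries, 4 of the 5 members had no overlap between the 12 libraries with and the 12 without IFN-γ, 3 of them higher with it and 1 lower. Over all 13096 genes compared this way, the CPM ranges did not overlap for 18.5%, 10% higher and 8.48% lower. The groups share the cytokine but differ in the peptide, so each comparison is given on its own below. A gene is said to have risen or fallen where edgeR's quasi-likelihood test gave an adjusted p (Benjamini-Hochberg over all genes) under 0.05 and the fold change was over 1.5.

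Fcgr1, the gene of the high-affinity IgG receptor, was read at 111, 149 and 160 CPM in PBS and at 388, 411 and 417 CPM in IFNy. The lowest IFNy library was above the highest PBS library. The level rose 2.92-fold, a log2 change of 1.55 (SE 0.121, 95% interval 1.28 to 1.81) with an adjusted p of 1.91e-06.

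Fcgr4, the gene of a receptor for IgG2a and IgG2b complexes, was at 29.9, 25.5 and 20.6 CPM in PBS against 56.3, 79.3 and 62.0 CPM in IFNy. The ranges were again apart. It rose 2.63-fold, a log2 change of 1.40 (SE 0.147, 95% interval 1.07 to 1.72) with an adjusted p of 2.07e-05.

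Fcgr3, the gene of the low-affinity activating receptor, went the other way, from 161, 151 and 128 CPM in PBS to 85.7, 119 and 91.2 CPM in IFNy. Replicate 2 of IFNy lay nearest to PBS but still under it. The log2 change was -0.56 (SE 0.120, 95% interval -0.82 to -0.29, adjusted p 0.0033), past the p threshold and just under the fold minimum. Without replicate 2 it was -0.69 and without replicate 3 it was -0.60, both past the minimum.

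Fcgr2b, the gene of the inhibitory receptor, was at 54.6, 50.4 and 52.7 CPM in PBS and at 75.0, 70.9 and 72.1 CPM in IFNy. All 3 were higher, by 1.40-fold (log2 0.48, SE 0.0702, 95% interval 0.33 to 0.64, adjusted p 0.00023), which was past the p threshold but under the fold minimum. Fcer1g, the adaptor, was at 544, 515 and 525 CPM in PBS and 445, 489 and 463 CPM in IFNy, with a log2 change of -0.16 (SE 0.0698, 95% interval -0.32 to -0.01) that did not pass (adjusted p 0.0831).

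In this comparison 2 of the 5 members were called, both higher, where 18.1% of the 12242 genes tested were called and 9.79% were called higher. At any fold, 4 of 5 were past the p threshold, against 39.7% of all genes. The median log2 change was 0.48 over the members and -0.01 over all genes.

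**Figure D2:**
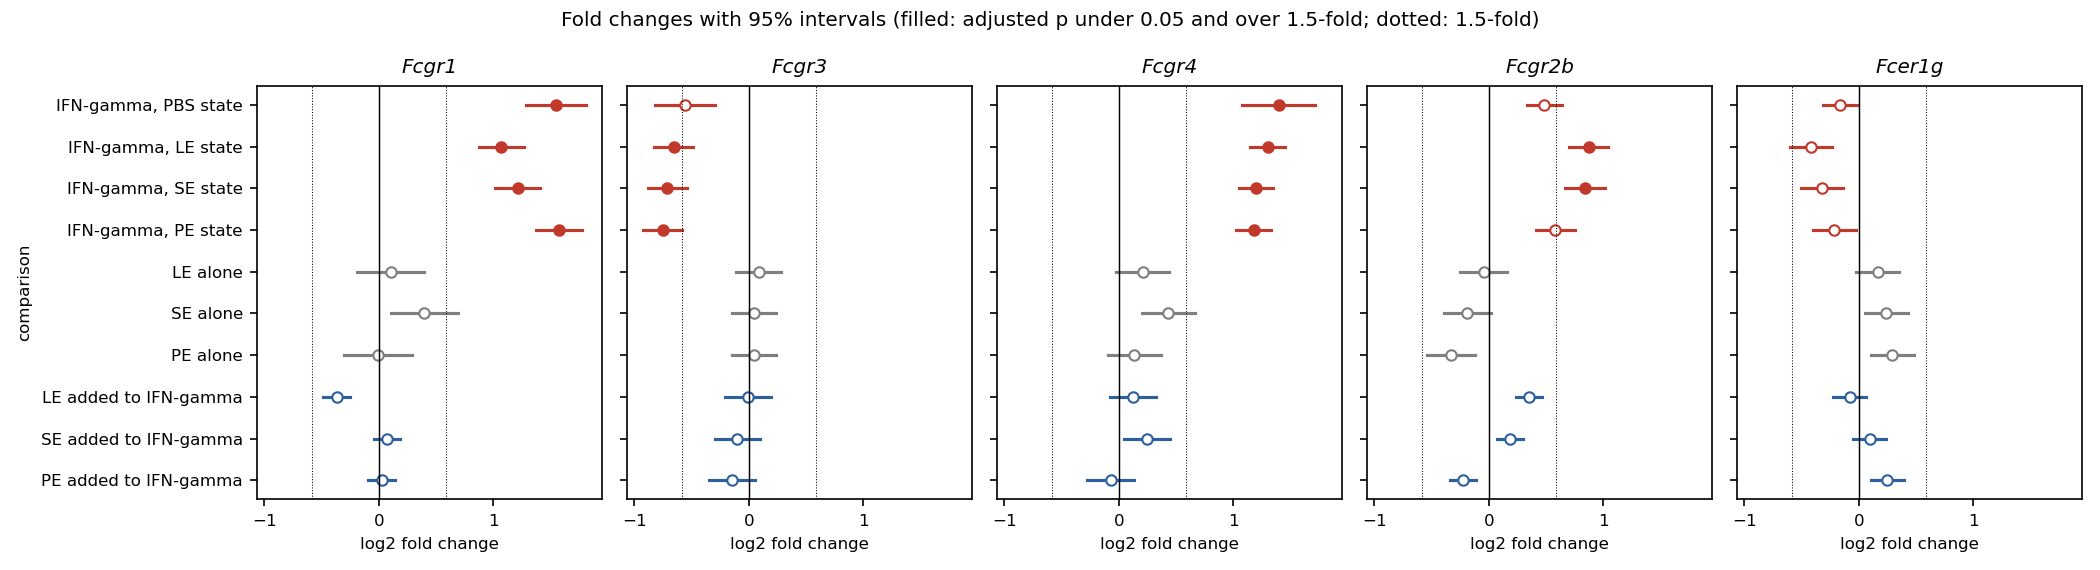
Log2 fold change of each member (horizontal axis) with its 95% interval in 10 comparisons (vertical axis), red for IFN-γ against no IFN-γ with the same peptide or PBS, grey for a peptide against PBS and blue for a peptide with IFN-γ against IFN-γ alone. Filled points passed both thresholds and dotted lines mark the fold minimum of 1.5. All filled points are IFN-γ comparisons, with Fcgr1, Fcgr4 and Fcgr2b to the right and Fcgr3 to the left.

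The same cytokine was next compared in cells that also had a peptide, each peptide with IFN-γ against that peptide alone (Model B). With LE, Fcgr1 went from 146, 150 and 141 to 317, 326 and 289 CPM, Fcgr4 from 27.0, 29.8 and 28.1 to 66.3, 73.0 and 73.2 CPM, and Fcgr2b from 52.3, 49.5 and 46.3 to 89.8, 96.0 and 89.4 CPM. Fcgr3 went from 144, 153 and 156 to 93.0, 98.0 and 100 CPM. None of these ranges overlapped. With LE 4 of 5 members were called, where 35.1% of all genes were: Fcgr4 rose by a log2 change of 1.30, Fcgr1 by 1.07 and Fcgr2b by 0.87, and Fcgr3 fell by 0.66. Fcer1g was lower by a log2 change of -0.42 (567, 540 and 612 CPM against 409, 455 and 444 CPM), past the p threshold (adjusted p 0.000331) and under the fold minimum.

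With SE the same 4 members were called, against 26.3% of all genes. Fcgr1 rose by a log2 change of 1.21, from 152, 169 and 204 to 396, 435 and 422 CPM. Fcgr4 rose by 1.20, from 33.3, 32.2 and 31.9 to 77.5, 76.0 and 76.7 CPM, and Fcgr2b rose by 0.84, from 41.9, 38.4 and 51.1 to 80.0, 79.0 and 83.5 CPM. Fcgr3 fell by 0.71, from 151, 137 and 143 to 88.5, 91.2 and 91.2 CPM. In Fcgr4 the replicates of both groups lay closer together than in PBS and IFNy.

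With PE 3 of 5 members were called, against 21% of all genes. Fcgr1 rose by a log2 change of 1.57, from 143, 144 and 107 to 396, 405 and 412 CPM, and Fcgr4 by 1.18, from 27.0, 26.1 and 25.5 to 55.3, 63.3 and 65.5 CPM. Fcgr3 fell by 0.75, from 144, 130 and 153 to 77.9, 89.0 and 95.4 CPM. Fcgr2b went from 37.4, 40.9 and 39.8 to 58.5, 62.6 and 61.8 CPM, a log2 change of 0.58 (adjusted p 6.97e-06) that lay at 1.497-fold, just under the minimum, and passed it without replicate 3 (0.59). Fcer1g had a log2 change of -0.21 in PE and -0.32 in SE, the first just outside the p threshold (adjusted p 0.0514) and the second inside it (adjusted p 0.00397). The 3 Model B comparisons share no library with each other.

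Peptides given without IFN-γ called none of the 5 members, where the share of all genes called was 0.0242% with LE, 1.92% with SE and 3.13% with PE. At an unadjusted p under 0.05 there were 3 members with SE, 2 with PE and 0 with LE, and DESeq2 also called 0 in each. For SE, Fcgr4 was higher in all 3 libraries than in any PBS library (log2 change 0.43, 95% interval 0.20 to 0.66, adjusted p 0.0200). For PE, Fcgr2b was lower (log2 change -0.33, 95% interval -0.54 to -0.12, adjusted p 0.0295) and Fcer1g higher (0.29, 95% interval 0.10 to 0.48, adjusted p 0.0324, with libraries at 638, 549 and 636 CPM). These passed the p threshold and stayed under the fold minimum, and 14.3% of genes with SE and 20% with PE were past that threshold too. All 3 comparisons used the same PBS libraries.

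In LE+IFNy against IFNy (Model A), 2 of 5 members were past the p threshold, where 50.5% of all genes were, and 0 were called, where 15.5% were. Fcgr1 was at 317, 326 and 289 CPM in LE+IFNy against 388, 411 and 417 CPM in IFNy, lower in all 3 (log2 change -0.37, SE 0.0551, 95% interval -0.49 to -0.25, adjusted p 2.46e-05). Fcgr2b was at 89.8, 96.0 and 89.4 CPM against 75.0, 70.9 and 72.1 CPM, higher in all 3 (0.35, SE 0.0539, 95% interval 0.24 to 0.46, adjusted p 3.22e-05). Both were under the fold minimum, and the share of members past the p threshold was not above that of all genes. For Fcgr3, Fcgr4 and Fcer1g the intervals were -0.20 to 0.19, -0.08 to 0.32 and -0.22 to 0.06.

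SE with IFN-γ gave 80.0, 79.0 and 83.5 CPM of Fcgr2b, above every IFNy library (log2 change 0.18, 95% interval 0.07 to 0.29, adjusted p 0.0153). Fcgr4 was at a log2 change of 0.25 (95% interval 0.05 to 0.45, adjusted p 0.0546). PE with IFN-γ gave the reverse for Fcgr2b, at 58.5, 62.6 and 61.8 CPM and under every IFNy library (-0.22, 95% interval -0.34 to -0.11, adjusted p 0.0189), and a higher Fcer1g, at 520, 508 and 600 CPM (0.25, 95% interval 0.11 to 0.39, adjusted p 0.0300). None of these was called. With SE and with PE also 0 of 5 members were called, where 7.39% and 0.629% of genes were, and DESeq2 called 0 members for each of the 3 peptides. At an unadjusted p under 0.05 there were 2 members for each peptide. At any fold, 1 member was past the p threshold with SE and 2 with PE, where 33.4% and 10% of genes were. The 3 comparisons share the IFNy libraries.

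The peptides were compared with each other in 3 pairs, all with IFN-γ at the same dose and time, and p-values were adjusted over all genes within each pair. Between LE and PE 3 of 5 members were past the p threshold, as were 59.9% of all genes: Fcgr2b was 1.49-fold higher with LE (log2 0.58, 95% interval 0.46 to 0.69, adjusted p 9.85e-08), Fcgr1 lower (-0.39, 95% interval -0.51 to -0.28, adjusted p 8.86e-06) and Fcer1g lower (-0.33, 95% interval -0.47 to -0.19, adjusted p 0.000445). Between LE and SE there were 2, where 35.6% of genes passed, Fcgr1 (-0.44, 95% interval -0.55 to -0.32, adjusted p 2.98e-05) and Fcgr2b (0.17, 95% interval 0.06 to 0.28, adjusted p 0.0195). Between SE and PE there were 2, where 34.4% passed, Fcgr2b (0.41, 95% interval 0.29 to 0.52, adjusted p 1.89e-05) and Fcgr4 (0.32, 95% interval 0.12 to 0.52, adjusted p 0.0151). Fcgr3 passed in no pair, with intervals of -0.11 to 0.29 for LE against SE, -0.06 to 0.34 for LE against PE and -0.16 to 0.24 for SE against PE.

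By both thresholds 0 of 5 members were called in any pair, against 4.93% of genes for LE against SE, 21.6% for LE against PE and 7.59% for SE against PE. In each pair 3 members had an unadjusted p under 0.05. DESeq2 called 1 member, Fcgr2b, in LE against PE (log2 0.59). That gene sat near the fold minimum, and without replicate 3 the edgeR test also called it (0.61). The HLA-named libraries of both groups, whose target level matched the label, did not show this difference. There Fcgr2b was at 64.6 ± 0.639 CPM in LE+IFNy and 67.1 ± 4.67 in PE+IFNy (SD, n = 3).

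Across genes, the log2 changes of the peptide comparisons went with exon length in directions that differed, and hardly at all with SE in Model A. Exon length differs among the members, from 5790 bases in Fcgr2b to 874 in Fcer1g around a median of 4230 over genes tested. Spearman's rho over genes was -0.451 in PE, -0.439 in SE and -0.371 in LE, each against PBS, -0.385, -0.0567 and 0.213 for the same peptides in Model A, and 0.354, 0.348 and 0.210 for LE against SE, LE against PE and SE against PE. For the interactions with LE, SE and PE, given next, it was 0.308, 0.264 and 0.239. It was -0.0398 for IFN-γ against PBS, and in Model B it was 0.221 with LE, 0.166 with SE and 0.0788 with PE. The part of length in the differences and interactions of the members was not tested.

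Whether a peptide changed the response to IFN-γ was tested as an interaction in 1 fit of all 8 groups. With LE the rise of Fcgr1 was smaller by a log2 change of -0.48 (95% interval -0.81 to -0.16, adjusted p 0.0181) and that of Fcgr2b larger by 0.39 (95% interval 0.16 to 0.61, adjusted p 0.00762). With SE the change of Fcgr2b was larger by 0.36 (95% interval 0.13 to 0.59, adjusted p 0.0228). With PE no member passed, and the intervals ran from -0.31 to 0.34 for Fcgr1 and from -0.14 to 0.32 for Fcgr2b. All of these were under the fold minimum, so 0 of 5 members were called, where 18.9% of genes were with LE, 7.96% with SE and 0% with PE. At any fold the shares of genes past the p threshold were 38.5%, 19.8% and 0%. DESeq2 also called 0 members in each, and at an unadjusted p under 0.05 there were 2 with SE, 3 with LE and 0 with PE. With PE 1073 of 13096 genes had an unadjusted p under 0.05.

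Ordered by mean level, Fcgr2b had the most steps among groups. It ran LE+IFNy, SE+IFNy, IFNy and PE+IFNy, with each range of replicates apart from the next, and then PBS, LE, SE and PE, whose neighbours overlapped. Fcgr1 was highest in SE+IFNy, IFNy and PE+IFNy, which overlapped one another in turn, then LE+IFNy, then SE, and then LE, PBS and PE, again overlapping. SE was apart from LE but overlapped PBS (152 to 204 against 111 to 160 CPM). Fcgr4 had its highest mean in SE+IFNy, whose range of 76.0 to 77.5 CPM lay within that of IFNy (56.3 to 79.3 CPM). SE+IFNy was apart from LE+IFNy, the next group by mean. LE+IFNy overlapped IFNy, and IFNy overlapped PE+IFNy. Among the groups without IFN-γ, SE was apart from LE, and LE, PE and PBS overlapped in turn. For Fcgr3 the 4 groups without IFN-γ overlapped in turn, all above the 4 with it. Fcer1g had 1 gap in 7 neighbouring pairs, between PBS and SE+IFNy.

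The ratio of activating to inhibitory counts within a library does not depend on how libraries are scaled. The ratio Fcgr3 to Fcgr2b was 2.79 ± 0.313 in PBS, 3.07 ± 0.309 in LE, 3.32 ± 0.452 in SE and 3.63 ± 0.394 in PE. With IFN-γ it was 1.36 ± 0.278 in IFNy, 1.06 ± 0.0554 in LE+IFNy, 1.12 ± 0.0328 in SE+IFNy and 1.43 ± 0.106 in PE+IFNy (SD, n = 3). The 12 libraries with IFN-γ did not overlap the 12 without: the log2 ratio was 0.03 to 0.74 with it and 1.28 to 1.95 without it, a mean difference of -1.37. The ratio Fcgr1 to Fcgr2b went the other way, from 2.68 ± 0.558 in PBS to 5.58 ± 0.354 in IFNy. It went from 2.96 ± 0.138 in LE to 3.38 ± 0.151 in LE+IFNy, which was below the 4.01 ± 0.386 of SE alone. The ratio was 5.17 ± 0.294 in SE+IFNy, and went from 3.35 ± 0.583 in PE to 6.63 ± 0.157 in PE+IFNy. Its mean log2 difference over the 24 libraries was 0.66, and that of Fcgr4 to Fcgr2b was 0.57, with ranges that overlapped in both.

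Against the adaptor, Fcgr1 had a mean log2 difference of 1.64, Fcgr4 of 1.55, Fcgr2b of 0.98 and Fcgr3 of -0.39 with against without IFN-γ. Each of the 7 ratios gave p = 1.25e-05 in a two-sided exact permutation test within PBS, LE, SE and PE (160000 arrangements), which is the smallest it can give, and the same after Benjamini-Hochberg adjustment over the 7. This p does not rank the 7 ratios, which share the counts of Fcgr2b and Fcer1g. How many other gene pairs would reach it was not tested. 

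**Figure D3:**
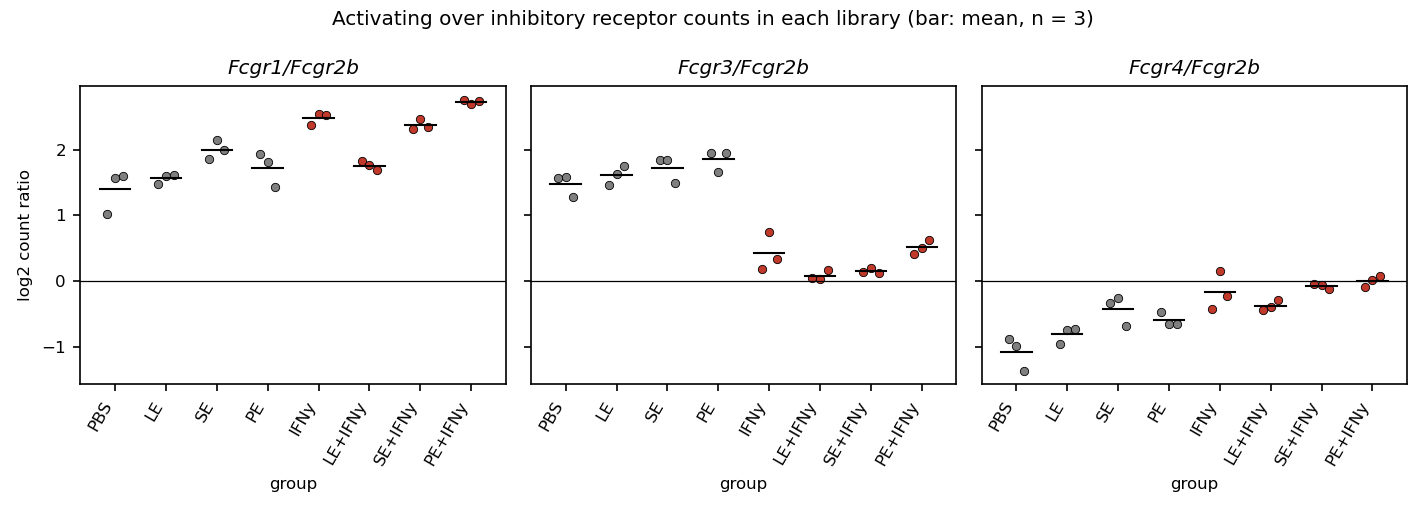
Log2 ratio of counts of each activating receptor to Fcgr2b (vertical axis) in each letter-named library by group, grey without and red with IFN-γ, bars for group means (n = 3). Fcgr3 to Fcgr2b lay between 0.03 and 0.74 with IFN-γ and between 1.28 and 1.95 without, and Fcgr1 to Fcgr2b was highest in PE+IFNy and, among groups with IFN-γ, lowest in LE+IFNy.

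The patterns of the members over the 24 letter-named libraries were set beside each other as Pearson's r of log2 CPM, a description in which all points share the IFN-γ split. Fcgr1 and Fcgr4 had r = 0.930, Fcgr2b and Fcgr4 0.866, and Fcgr1 and Fcgr3 -0.914. Of 8632 genes over 10 CPM, the 3 most like Fcgr1 were Trib3 (0.985), Them4 (0.985) and Otub2 (0.984), those most like Fcgr4 were Tmem140 (0.985), Prdx1 (0.985) and Slc11a1 (0.984), and those most like Fcgr2b were R3hdm2 (0.970), Zfp180 (0.966) and Eps15 (0.965). Fcgr3 was most like Lamp1 (0.977), Gas6 (0.970) and Steap3 (0.961). Fcer1g had lower values, with Ssna1 (0.943), Mrps17 (0.943) and Ap2s1 (0.942).

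Other receptors that bind antibody or its relatives were mostly not expressed: 3 of 13 listed genes were tested. In IFNy against PBS none of the 3 was called, where 18.1% of all genes were called and 39.7% were past the p threshold. The 2 past that threshold were Trim21, the cytosolic antibody receptor (log2 change 0.58, adjusted p 0.0120), and Fcrl1 (0.40, adjusted p 0.00361). Trim21 rose in Model B with LE (0.69) and SE (0.91), where 35.1% and 26.3% of all genes were called. Fcgrt, the neonatal Fc receptor, rose with PE alone (0.76), where 3.13% of all genes were called. These genes were singled out after their values were seen.

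A list of 15 genes held receptors that pair with Fcer1g or with its sister adaptor Tyrobp, their close relatives and Tyrobp itself. In IFNy against PBS 10 of them were tested and 5 fell, with none higher, where 18.1% of all genes were called and 8.28% were called lower. Trem2, a lipid receptor of macrophages that pairs with Tyrobp, fell by a log2 change of 1.44, from 464 ± 13.0 to 169 ± 9.06 CPM, and Tyrobp fell by 0.60, from 865 ± 43.2 to 564 ± 42.5 CPM. Pirb, an inhibitory receptor with motifs of its own and reads that can be split with close paralogs, fell by 0.82, and Oscar and Lilra6, both at means under 5 CPM, also fell. In Model A, Clec4e, which senses mycobacterial and dead-cell lipids through Fcer1g, rose with LE by 1.27 and with SE by 0.94. For each of these peptides 2 of 10 tested genes rose and 1 fell, where 15.5% of all genes were called with LE and 7.39% with SE. The others were Clec5a (0.71) and Pirb (-0.74) with LE and Clec4d (0.65) and Lilra6 (-0.68) with SE.

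Below the receptors, 8 of 23 activating signalling genes were called in IFNy against PBS, 4 higher and 4 lower. Syk, the kinase that reads the gamma chain, fell by a log2 change of 0.97, from 154 ± 13.6 to 77.8 ± 6.91 CPM, and Fgr, a Src family kinase, fell by 1.57. Lcp2, an adaptor below Syk, rose by 0.74, from 248 ± 33.6 to 411 ± 44.6 CPM. In the same comparison 18.1% of all genes were called. With LE added to IFN-γ, 6 of 23 were called, 5 higher and 1 lower, where 15.5% of all genes were, and Syk rose by 0.82 to 136 ± 8.28 CPM, Fgr by 0.99 and Gab2, a docking protein, by 1.07. With SE added, 5 rose and none fell, where 7.39% of all genes were called, Syk by 0.70 and Src by 0.86. The genes that rose with LE and with SE include Cblb (0.97 and 0.63), a ubiquitin ligase that restrains this signalling. The counts of this list are therefore no measure of activating signalling alone. With PE added edgeR called 0, where 0.629% of all genes were called.

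Among 19 inhibitory signalling genes tested in IFNy against PBS, 2 rose and 1 fell. Cd300lf, an inhibitory receptor of myeloid cells, rose by a log2 change of 1.37 and Clec4a2, an inhibitory lectin, by 0.94, and Cd33 fell by 0.74. Of 24 genes of the phagocytic cup, the actin machinery that closes around an antibody-coated particle, 3 rose and 1 fell, with Coro1a at 0.73, Pld1 at 0.62 and Gsn, which severs actin filaments, at -0.79. In the same comparison 18.1% of all genes were called, and the medians were 0.14 for the inhibitory list, -0.11 for the cup and -0.07 for the activating list, against -0.01 for all genes.

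The HLA-named libraries are given by their labels, as levels. Fcgr4 was at 19.4 ± 1.13 CPM in PBS, 79.3 ± 1.13 in LE, 22.5 ± 0.598 in SE and 67.9 ± 8.73 in PE, and at 17.6 ± 4.78 in IFNy, 49.1 ± 2.98 in LE+IFNy, 22.7 ± 0.981 in SE+IFNy and 55.4 ± 5.81 in PE+IFNy (SD, n = 3). For Fcgr4 the high groups were those in which the 20 IFN-γ targets were also high, 6.36 to 7.08, and the low groups those in which they were 2.32 to 2.63. Fcgr1 was at 178 ± 51.7 CPM in LE, 172 ± 14.5 in PE, 268 ± 4.02 in LE+IFNy and 262 ± 4.09 in PE+IFNy, against 139 ± 39.6 in PBS, 108 ± 5.02 in SE, 104 ± 24.2 in IFNy and 86.8 ± 2.03 in SE+IFNy. Its libraries in PBS reached 184 CPM and so overlapped those in LE and PE. Fcgr3 was at 103 ± 6.53 CPM in LE, 101 ± 3.99 in PE, 76.3 ± 3.99 in LE+IFNy and 99.65 ± 9.49 in PE+IFNy. It was at 76.9 ± 12.8 CPM in PBS, 109 ± 11.9 in SE, 86.9 ± 27.3 in IFNy and 140 ± 12.8 in SE+IFNy. These Fcgr3 levels did not follow the target level. Fcgr2b was at 64.0 ± 4.77 CPM in LE, 77.5 ± 0.820 in PE, 64.6 ± 0.639 in LE+IFNy and 67.1 ± 4.67 in PE+IFNy. It was at 47.7 ± 11.3 CPM in PBS, 46.8 ± 4.62 in SE, 38.4 ± 4.70 in IFNy and 48.1 ± 3.01 in SE+IFNy. So the higher Fcgr2b and lower Fcgr1 of LE+IFNy against PE+IFNy in the letter-named libraries were not seen in this series. Fcer1g stayed between 362 and 416 CPM as a group mean in all 8 groups. Comparisons within these libraries are given only as alternatives.

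**Figure D4:**
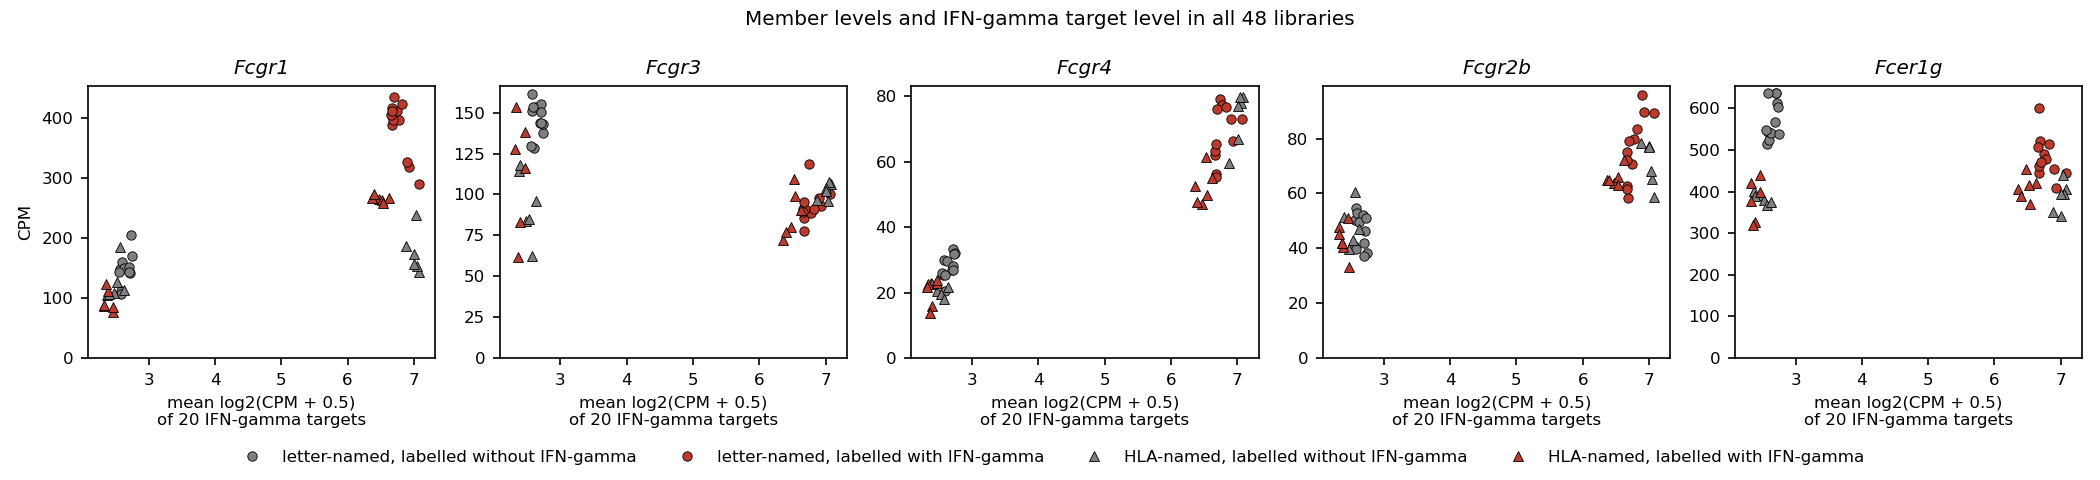
Level of each member in CPM (vertical axis, from 0) against the IFN-γ target level, log2(CPM + 0.5) averaged over 20 genes (horizontal axis) in all 48 libraries, circles for letter-named and triangles for HLA-named, grey for labels without and red for labels with IFN-γ. Grey circles lie at the left and red circles at the right, while 6 grey triangles lie at the right and 6 red triangles at the left, and Fcgr4 is high at the right in both series.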

How the data were processed

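Messenger RNA was sequenced from 48 RAW264.7 libraries. Per the study's methods, stranded poly(A) libraries were read single-ended over 100 bases and uniquely mapped reads were counted per gene. The authors deposited whole-number counts per gene, not normalized, and those counts were used as they stand. The submitters' processing notes name featureCounts, DESeq2 1.16.1, R 3.4.1 and GRCm38.p5. Date-like gene names (26) and lines with a repeated name (4) stayed in the totals. Counts were tested with edgeR 4.0.16 in R 4.3.3 (TMM, low-count filter, quasi-likelihood test, Benjamini-Hochberg over all genes), called at an adjusted p under 0.05 and a fold over 1.5. Peptides alone, Model A with the peptide pairs, Model B and the interactions each came from 1 fit of the groups concerned (all 8 for the interactions). Ratios were tested by exact permutation. DESeq2 1.42.0, its size factors, no filter, a replicate block, 1 fit of all 8 groups, each replicate left out, both label series and the HLA-named series alone were tried as alternatives. Exon lengths and positions came from GENCODE M21 and promoters from RefSeq. The tests were checked on simulated data.

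The 5 members and the gene lists were chosen with earlier results of these data known. All members are named. Of each list, up to 4 called genes per comparison with the largest change and a mean of at least 10 CPM could be named, and any gene where a count was 5 or fewer. Likeness took the 3 genes with the highest r of log2 CPM (prior count 2), among genes of at least 10 CPM. A figure legend of the study describes the 6 libraries per group as biological replicates of 2 experiments. The labels name neither cultures nor the experiment of a library, so p-values measure the spread between these libraries. In 24 replicate pairs, counts differed by more than sampling noise (chi-square per degree of freedom 3.89 to 25.9).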

Additional observations from a re-analysis of the deposited data

Results flagged for a closer look

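In 3 results the response to IFN-γ differed with a peptide by the interaction test of edgeR (adjusted p under 0.05, 3 libraries per group). With LE the log2 change of Fcgr1 under IFN-γ differed by -0.48 (adjusted p 0.0181), with 1.07 in the presence of LE against 1.55 in PBS. With LE that of Fcgr2b differed by 0.39 (adjusted p 0.00762), and with SE by 0.36 (adjusted p 0.0228). None passed the fold minimum of 1.5. At any fold 2 of 5 members passed with LE and 1 of 5 with SE, where 38.5% and 19.8% of all genes did. Across genes the interaction went with exon length (Spearman's rho 0.308 with LE and 0.264 with SE), and the part of length was not tested.

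The HLA-named libraries, used only as levels and in alternatives, held 3 signals above their own PBS libraries in groups labelled without IFN-γ. Fcgr4 had a log2 difference of 2.13 in those labelled LE (adjusted p 9.68e-11) and of 1.84 in those labelled PE (adjusted p 6.08e-10), and Fcgr2b of 0.74 in those labelled PE (adjusted p 0.000181), by edgeR within that series. The 20 IFN-γ targets were at 7.03 to 7.08 in the libraries labelled LE and at 6.88 to 7.01 in those labelled PE, against 2.47 to 2.57 in PBS (mean log2(CPM + 0.5)). Groups of 3 libraries were not tested for outlying samples.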

How the results depend on the processing

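With DESeq2 size factors and with the DESeq2 test, LE against PE called 1 member in place of 0, Fcgr2b at 0.59, and the cause was not tested. No other count of members called changed with these or in 1 fit of all 8 groups, and without the low-count filter only Model B with PE did, to 4. Leaving out each replicate gave 2 to 3 members called in IFN-γ against PBS, 3 to 4 in Model B with PE, and 0 to 1 in LE against PE. Replicate numbers 1 to 3 recur in every group. Of 84 pairs of libraries with the same number in different groups, 46 correlated over 0.1 (median 0.132, lowest -0.408, highest 0.633). They were not taken as pairs in the main tests. A replicate block moved the genes called from 239 to 344 for SE alone and from 389 to 514 for PE alone. With the replicate block 2 members were called in IFN-γ against PBS and 4, 4 and 3 in Model B with LE, SE and PE, as without it, and the block changed no other count of members called.

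With both label series together, 0 members were called in IFN-γ against PBS and in Model B 0 with LE, 0 with SE and 1 with PE. With the series as a factor the counts were 0, 0, 0 and 1, and 1 each for LE alone, PE alone and Model A with LE. These fits take in the 12 libraries whose targets go against their label, and the cause of the change was not tested. With the HLA-named series alone, members called were 0 in IFN-γ against PBS, 1 for LE alone, 2 for PE alone, 3 in Model A with LE and 3 with PE, 1, 0 and 0 in Model B with LE, SE and PE, 3 in LE against SE, 2 in SE against PE, and 3 and 1 in the interactions with LE and PE. Reversals were listed only for members called in the letter-named or the HLA-named fit, so sign changes of uncalled members are left out. The listed log2 changes that reversed there were, in IFN-γ against PBS, Fcgr1 -0.43 and Fcgr4 -0.13, for PE alone Fcgr2b 0.74, in Model A Fcgr1 1.36 (LE), Fcgr2b 0.81 and Fcgr4 1.64 (PE), in Model B Fcgr2b -0.11 and Fcgr4 -0.81 (LE), Fcgr1 -0.30 and Fcgr3 0.36 (SE) and Fcgr4 -0.34 (PE), in LE against SE Fcgr1 1.58, Fcgr3 -0.92 and Fcgr4 1.06, in SE against PE Fcgr1 -1.56 and Fcgr4 -1.26, and in the LE interaction Fcgr1 0.90. The log2 ratios with against without IFN-γ there were Fcgr1/Fcgr2b 0.24, Fcgr3/Fcgr2b 0.12, Fcgr4/Fcgr2b -0.17, Fcgr1/Fcer1g 0.095, Fcgr3/Fcer1g -0.021, Fcgr4/Fcer1g -0.32 and Fcgr2b/Fcer1g -0.14. Counts of 421 or more per library stood behind every member value in the letter-named libraries, with 3 libraries per group. How much of the spread between replicates of each member was counting error was not tested.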
